A study of Homo sapiens with 6 samples.

Results

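Keratin genes of the chromosome 12 cluster were followed in HaCat cells, a human skin keratinocyte line that became immortal in culture. The 9 genes were taken by name from a table of 46287 rows: the type II keratins KRT4, KRT5, KRT6A, KRT6B, KRT6C, KRT7, KRT8 and KRT80, and KRT18, a type I keratin that lies in the same cluster. The study compared 3 libraries of HaCat cells carrying a CRISPR/Cas9-made knockout of SDR42E1 with 3 libraries of unedited wild-type HaCat cells, the controls. The knockout libraries are headed Hom, read here as homozygous. SDR42E1 is a short-chain dehydrogenase/reductase that the study examined for a role in vitamin D biosynthesis. Both groups were kept in high-glucose DMEM with serum and harvested before confluence. Replicates are labelled as biological, but whether each was its own culture, and whether the knockout is 1 clone, is unstated, so p-values cover only the spread from library to library, which may be technical.

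Keratins are the intermediate filament proteins of epithelial cells. They assemble only as pairs of a type II and a type I chain, and the pair in use depends on the state of the cell: KRT5 with KRT14 in basal keratinocytes, KRT6 chains with KRT16 and KRT17 in wounded or activated epidermis, KRT8 with KRT18 in simple epithelia, and KRT4 with KRT13 in the upper layers of internal stratified epithelia. The filaments are held to the membrane at desmosomes and hemidesmosomes and give the cell its resistance to stretch.

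The 9 genes span 784 kb of chromosome 12, from 52168996 to 52952901 (GRCh38, positions from GENCODE release 29), in the order KRT80, KRT7, KRT6B, KRT6C, KRT6A, KRT5, KRT4, KRT8 and KRT18. KRT7 and KRT18 lie on the plus strand and the other 7 on the minus strand. Annotated exons of KRT8 and KRT18 overlap by 525 bases on opposite strands. Exons of KRT7 overlap those of the antisense gene KRT7-AS by 282 bases. The libraries were stranded, but with the strand setting of the counting unstated, reads from the overlapping bases could have gone to either gene.

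The KRT6 genes are shown first as sequence, because the letters set how far their counts can be told apart. Each has a coding sequence of 1695 bases, and the 3 differ from each other at 52 positions in all. KRT6A and KRT6B are 97.5% identical, KRT6A and KRT6C 97.9%, and KRT6B and KRT6C 98.5%. Among stretches of 60 bases that begin with a codon, none has more differences than the stretch below. That stretch is coding bases 664 to 723, counted from the A of the start codon. It lies at chr12:52491554-52491613 for KRT6A, chr12:52450438-52450497 for KRT6B and chr12:52472098-52472157 for KRT6C, all on the minus strand of GRCh38, and capitals mark the 9 positions at which the 3 are not all the same.
KRT6A: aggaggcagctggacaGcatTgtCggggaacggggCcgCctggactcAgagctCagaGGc
KRT6B: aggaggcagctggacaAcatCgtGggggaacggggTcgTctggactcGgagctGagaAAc
KRT6C: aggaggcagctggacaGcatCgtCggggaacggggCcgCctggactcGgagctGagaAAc
A read over this whole stretch can be assigned to its gene, and the other differences lie elsewhere in the coding sequence, with runs between them that are the same in 2 or all 3 genes. Of the 1596 windows of 100 bases in each coding sequence, 75.9% of those of KRT6A were found in neither of the other 2 genes, against 67.7% for KRT6B and 58.0% for KRT6C. Read length and the handling of reads with several matches were likewise unstated, so KRT6B and KRT6C values are uncertain to the extent that KRT6A reads were counted to them.

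KRT5, the neighbour of KRT6A, is 78.0% identical to it over the aligned coding sequence. The longest run that KRT5 shares with KRT6C without a difference has 134 bases, and is shown because a read inside it cannot be assigned to either gene from its letters. The run lies at chr12:52519015-52519148 in KRT5, chr12:52472135-52472268 in KRT6C, chr12:52450475-52450608 in KRT6B and chr12:52491591-52491724 in KRT6A, on the minus strand of GRCh38. Capitals mark the positions at which KRT6B (1 position) and KRT6A (3 positions) differ from KRT5.
KRT5: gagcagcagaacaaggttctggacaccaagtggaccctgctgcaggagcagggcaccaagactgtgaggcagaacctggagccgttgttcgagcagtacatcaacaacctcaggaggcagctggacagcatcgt
KRT6C: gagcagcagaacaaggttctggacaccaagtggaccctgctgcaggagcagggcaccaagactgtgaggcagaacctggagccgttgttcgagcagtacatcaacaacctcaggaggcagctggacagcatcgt
KRT6B: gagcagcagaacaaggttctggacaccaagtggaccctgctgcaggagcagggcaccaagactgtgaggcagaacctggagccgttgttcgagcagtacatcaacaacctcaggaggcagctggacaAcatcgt
KRT6A: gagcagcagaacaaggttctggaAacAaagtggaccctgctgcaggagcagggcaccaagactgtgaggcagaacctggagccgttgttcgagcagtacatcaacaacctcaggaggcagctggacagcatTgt
Only 0.299% of the 100-base windows of KRT5 were found in KRT6A, 1.67% in KRT6B and 2.09% in KRT6C. No such window was shared between any other of the 9 coding sequences outside KRT5 and the KRT6 genes.

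Library totals ran from 11504473 to 13454544 counts in knockout cells and from 12094896 to 16928201 in control cells. SDR42E1 averaged 21.3 ± 1.61 CPM in knockout cells and 47.7 ± 1.02 CPM in control cells (SD, n = 3 each), so its RNA was lower but still present. CPM here is the count scaled to the TMM-adjusted library size. The position of the edit is unstated, so reads outside it say little about the protein. The listed keratinocyte markers, KRT14, TP63, ITGB4, ITGA6, COL17A1, LAMB3, DSP and SFN, were all at 208 CPM or more in every library, with a summed level of 6784 to 6946 CPM in knockout and 5553 to 5911 CPM in control libraries. Fibroblast markers summed to 1.12 to 2.13 CPM in knockout and 4.30 to 6.19 CPM in control libraries, with 5 of 7 under 1 CPM in every library and 2 at 0. Melanocyte markers (4 of 5 under 1 CPM), endothelial markers (2 of 4) and leukocyte markers (4 of 5) summed to at most 2.89 CPM in knockout and 4.28 CPM in control libraries.

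All 9 genes passed the filter on low counts, KRT6B only through its knockout libraries, where it was high. Of them, 6 were higher in the knockout (KRT6A, KRT6B, KRT6C, KRT7, KRT8 and KRT18), 2 were lower (KRT4 and KRT5), and KRT80 did not pass the threshold. These 8 of 9 stand beside 50.4% of all 12293 genes tested, with 24.6% of genes higher and 25.8% lower, so passing was common in these data. Changes of at least 2-fold were less common, at 7.14% of genes. They included KRT6A, KRT6B and KRT18, higher in the knockout as were 1.91% of genes, and KRT4, lower as were 5.23%. The median log2 fold change was 0.77 over the 9 genes and 0.00 over all genes tested. In 8 of the 9 genes the CPM of the groups did not overlap, as in 56.5% of all genes. In bulk RNA, a change in the number of cells with a keratin and a change in its RNA per cell cannot be told apart.

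**Figure D1:**
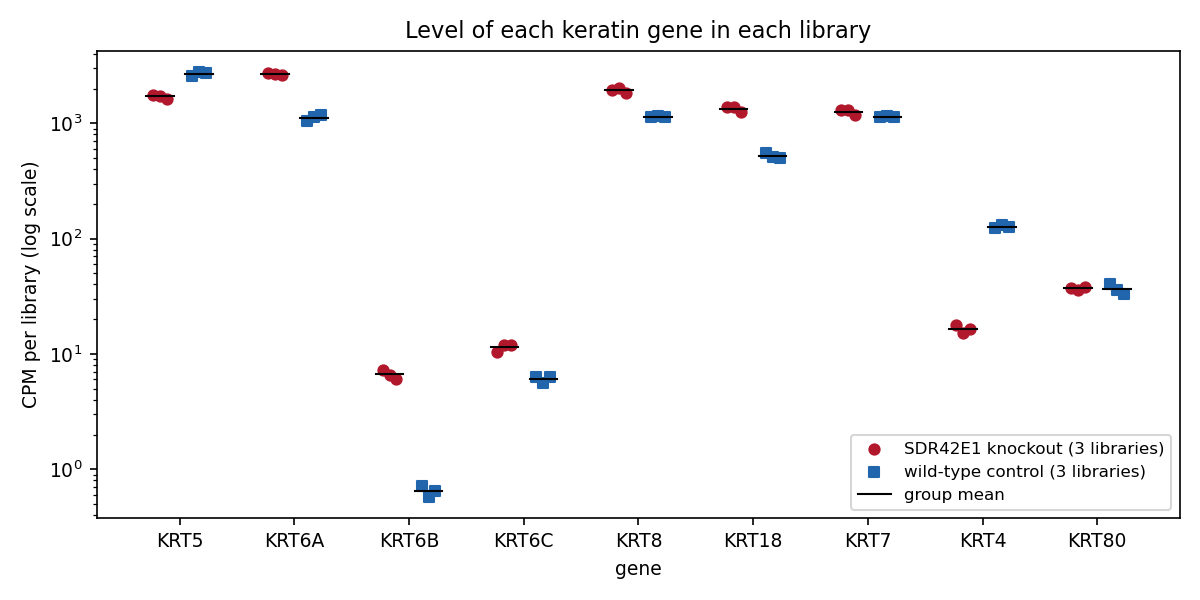
CPM of the 9 keratin genes on a log axis, with 1 point per library (3 knockout libraries left, 3 control libraries right for each gene) and a line at each group mean. KRT6A stands at 2598 to 2754 CPM in knockout and 1057 to 1176 CPM in control libraries, KRT4 at 15.2 to 17.8 and 124.6 to 131.0 CPM, and the groups of KRT80 overlap.

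KRT5, the type II chain of basal keratinocytes and a gene mutated in epidermolysis bullosa simplex, had 1762, 1733 and 1633 CPM in knockout libraries, against 2556, 2785 and 2754 CPM in control libraries. Every knockout library lay below every control library. The knockout level was 0.634 times that of control (log2 -0.66, SE 0.05, adjusted p = 8.98e-15). KRT14, its type I partner on chromosome 17, had 1718 ± 85.6 CPM in knockout and 1805 ± 92.6 CPM in control cells (SD, n = 3 each), with a log2 fold change of -0.07 that did not pass (adjusted p = 0.214). The ratio of KRT5 to KRT14 counts was therefore lower in the knockout, at 0.993, 0.985 and 1.01, against 1.5, 1.52 and 1.46 in control libraries.

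KRT6A, the main KRT6 chain of wounded and activated epidermis, had 2754, 2688 and 2598 CPM in knockout libraries, against 1057, 1128 and 1176 CPM in control libraries. It was 2.39-fold higher with no overlap (log2 1.26, SE 0.05, adjusted p = 4.89e-23). KRT6B, a KRT6 chain of hair follicle and nail, was rare, with 84, 87 and 70 counts in knockout libraries and 10, 10 and 8 counts in control libraries. That is 6.66 ± 0.573 CPM in knockout and 0.649 ± 0.0705 CPM in control cells (SD, n = 3 each), a log2 fold change of 3.35 (SE 0.29, adjusted p = 2.56e-12). It was the largest fold among the 9 genes and rests on their smallest counts. The control counts of KRT6B lay under the filter level, so it could be tested only because it was high in the knockout. KRT6C, the third KRT6 gene, had 120, 158 and 137 counts in knockout and 87, 97 and 78 counts in control libraries, and rose by 0.92 on the log2 scale (SE 0.15, adjusted p = 4.01e-06).

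KRT6B and KRT6C counts did not stay in 1 proportion to KRT6A counts. KRT6B had 0.00264, 0.00246 and 0.00236 counts for each KRT6A count in knockout libraries, against 0.000681, 0.000513 and 0.000552 in control libraries, a ratio 4.29-fold higher in the knockout. For KRT6C the ratio was lower in the knockout, at 0.00377, 0.00446 and 0.00461 against 0.00593, 0.00498 and 0.00538, with no overlap between the groups. Both ratios were looked at after the values were seen. With the 3 rows summed into 1 before the fit, KRT6 rose by 1.26 (SE 0.05, adjusted p = 3.72e-23). That sum is the same however reads were divided among the 3 genes. It mostly repeats KRT6A, which had 96946 counts over the knockout libraries, against 241 for KRT6B and 415 for KRT6C. The part of reads left out for several matches, or shared with KRT5, was not tested. KRT17, a type I partner of KRT6 chains, rose by 0.66 (SE 0.05, adjusted p = 5.15e-15), with 1161 ± 50.4 CPM in knockout and 734 ± 8.05 CPM in control cells (SD, n = 3 each). KRT16, the partner most used as a sign of activated epidermis, was rare at 7.13 ± 0.394 CPM in knockout and 4.94 ± 1.26 CPM in control cells (SD, n = 3 each). It was higher by 0.55 on the log2 scale (adjusted p = 0.0169), and the call was lost without control replicate 1, control replicate 2 or knockout replicate 1 (adjusted p = 0.0516, 0.133 and 0.0559). KRT6A counts were 366.1, 376.5 and 385.8 times KRT16 counts in knockout libraries, against 229.4, 290.9 and 185.8 times in control libraries.

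KRT8, the type II chain of simple epithelia, had 1962, 2011 and 1843 CPM in knockout libraries, against 1135, 1145 and 1139 CPM in control libraries. It was 1.70-fold higher (log2 0.77, SE 0.04, adjusted p = 6.02e-17). KRT18, the type I partner next to it, had 1377, 1384 and 1256 CPM in knockout libraries, against 552, 510 and 504 CPM in control libraries. It was 2.57-fold higher (log2 1.36, SE 0.05, adjusted p = 2.59e-23). In both genes every knockout library lay above every control library. KRT18 rose by more than KRT8: the count ratio of KRT8 to KRT18 was 1.43, 1.45 and 1.47 in knockout and 2.05, 2.25 and 2.26 in control libraries.

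KRT7, the other type II chain of simple and glandular epithelia, had 1292, 1305 and 1179 CPM in knockout libraries, against 1142, 1149 and 1124 CPM in control libraries. The groups did not overlap, but the lowest knockout library stood close to the highest control library. The difference of 0.15 on the log2 scale (SE 0.05) passed with an adjusted p of 0.00821, and the call was lost without control replicate 3 (adjusted p = 0.0549) or knockout replicate 2 (adjusted p = 0.0579). KRT19, the type I keratin most often found with KRT7, changed the other way, with 696 ± 37.3 CPM in knockout and 2098 ± 40.8 CPM in control cells (log2 -1.59, SE 0.05, adjusted p = 6.44e-26; SD, n = 3 each). KRT7 counts were 1.79, 1.83 and 1.81 times those of KRT19 in knockout libraries, against 0.556, 0.539 and 0.533 times in control libraries. The simple-epithelial keratins thus moved in both directions. KRT18, which KRT19 can replace as partner of KRT8, had 1.91, 1.94 and 1.92 counts for each KRT19 count in knockout and 0.269, 0.239 and 0.239 in control libraries, a pair chosen after its values were seen.

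KRT4, the type II chain of the differentiated layers of oesophagus and mouth, had 17.8, 15.2 and 16.4 CPM in knockout libraries, against 124.6, 131.0 and 125.1 CPM in control libraries. It was 7.72-fold lower in the knockout (log2 -2.95, SE 0.07, adjusted p = 3.46e-28), the largest fall among the 9 genes. Its type I partner KRT13 was lower too, at 1331 ± 72.3 CPM in knockout and 2998 ± 211 CPM in control cells (log2 -1.17, SE 0.05, adjusted p = 1.92e-18; SD, n = 3 each). KRT4 fell by more: the count ratio of KRT4 to KRT13 was 0.0127, 0.0114 and 0.0131 in knockout and 0.0450, 0.0412 and 0.0411 in control libraries. KRT80, a type II keratin found in many epithelia and tied to late differentiation, had 37.4, 36.1 and 38.3 CPM in knockout libraries, against 40.3, 35.5 and 33.3 CPM in control libraries. The groups overlapped, and the log2 fold change of 0.03 (SE 0.08) did not pass (adjusted p = 0.763).

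**Figure D2:**
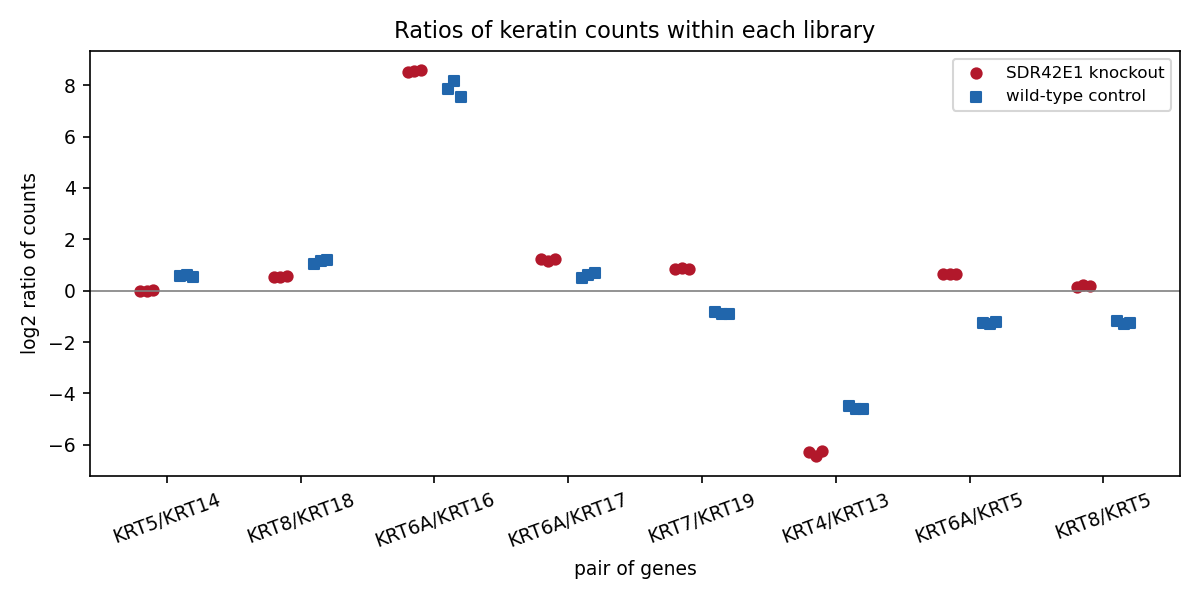
Log2 ratio of the counts of 2 keratin genes within each library, with 1 point per library (3 knockout left, 3 control right for each pair). The groups do not overlap in any of the 8 pairs. For KRT7/KRT19, KRT6A/KRT5 and KRT8/KRT5 all knockout libraries lie above 0 and all control libraries below. KRT5/KRT14 stands close to 0 in knockout libraries. Counts are not scaled to gene length, so 0 does not mark equal levels. Per kb of merged exons, KRT8 stayed below KRT5 in knockout cells (282 against 398 CPM). CPM of the groups does not overlap in 56.5% of single genes tested, and the share over gene pairs in general was not computed.

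A ratio within a library does not depend on the scaling of libraries. In each of the 8 pairs chosen as partners or as alternatives to KRT5, the knockout and control ratios did not overlap. The exact two-sided permutation test gave p = 0.10 for each pair (0.10 adjusted over the 8 pairs). That is the smallest value that 3 libraries against 3 allow. CPM did not overlap in 56.5% of single genes, and the share over gene pairs in general was not computed. KRT6A/KRT5, KRT8/KRT5 and KRT7/KRT19 each set a higher gene over a lower one, with no overlap of the groups in either gene. The separation of these pairs therefore follows from the values already given. The differences of the mean log2 ratio, knockout minus control, were 1.92 for KRT6A/KRT5, 1.74 for KRT7/KRT19, 1.42 for KRT8/KRT5, 0.70 for KRT6A/KRT16 and 0.60 for KRT6A/KRT17. They were -1.78 for KRT4/KRT13, -0.59 for KRT5/KRT14 and -0.59 for KRT8/KRT18. KRT6A had 1.56, 1.55 and 1.59 counts for each KRT5 count in knockout libraries, against 0.413, 0.405 and 0.427 in control libraries.

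Among the 9 genes, the leading type II chain differed between the groups. KRT5 made up 19.0% ± 0.1 of the summed counts of the 9 genes in knockout and 39.7% ± 0.907 in control cells, and KRT6A 29.8% ± 0.557 in knockout and 16.5% ± 0.557 in control cells (SD, n = 3 each). KRT18 took 14.9% ± 0.252 in knockout and 7.70% ± 0.567 in control cells (SD, n = 3 each). The 9 genes together held 0.853% to 0.899% of all counts in knockout and 0.669% to 0.703% in control libraries.

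**Figure D3:**
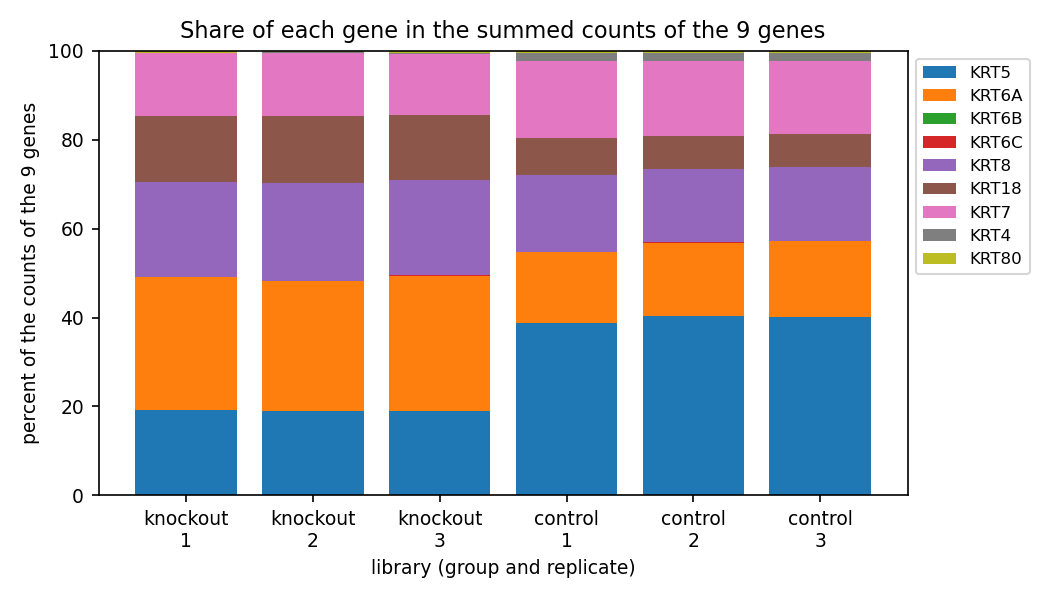
Percent of the summed counts of the 9 genes held by each gene, in 1 stacked bar per library (3 knockout, then 3 control). KRT5 is the largest part in control libraries at 38.7% to 40.4%, and KRT6A in knockout libraries at 29.2% to 30.3%.

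Levels of different genes were compared per kb of merged exons. In knockout cells KRT6A led with 915 ± 26.8 CPM per kb, ahead of KRT18 (416 ± 22.4), KRT5 (398 ± 15.7), KRT7 (308 ± 16.9), KRT8 (282 ± 12.5), KRT80 (8.57 ± 0.249), KRT4 (4.98 ± 0.396), KRT6C (3.95 ± 0.322) and KRT6B (2.92 ± 0.251; SD, n = 3 for each gene). The libraries of KRT18 and KRT5 overlapped in level, as did those of KRT7 and KRT8. In control cells KRT5 led with 629 ± 28.9 CPM per kb, followed by KRT6A (383 ± 20.6), KRT7 (278 ± 3.05), KRT8 (166 ± 0.764), KRT18 (162 ± 8.19), KRT4 (38.3 ± 1.07), KRT80 (8.36 ± 0.823), KRT6C (2.10 ± 0.137) and KRT6B (0.284 ± 0.0309; SD, n = 3 for each gene). There the libraries of KRT8 and KRT18 overlapped. Merged exons are long for genes with retained-intron transcripts, such as KRT8 with 6881 bases. With the length of 1 principal transcript in place of merged exons, a choice made after seeing the data, KRT6A still led in knockout and KRT5 in control cells, but 6 of 9 genes kept their rank in each group. KRT8 was then second in the knockout, at 912 CPM per kb.

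Levels per kb were summed over the type II members with 18 other type II keratins, and over KRT18 with a list of 21 type I keratins. The list does not hold every type I keratin. The 2 sums came closer together in the knockout. Type II levels were 0.813, 0.813 and 0.832 times type I levels in knockout libraries, against 0.465, 0.457 and 0.462 times in control libraries. Type II keratins summed to 1926 ± 68.8 CPM per kb in knockout and 1521 ± 48.1 in control cells, and type I keratins to 2351 ± 115 in knockout and 3298 ± 130 in control cells (SD, n = 3 each). With transcript lengths, the ratio was 0.863 to 0.880 in knockout and 0.514 to 0.526 in control libraries.

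**Figure D4:**
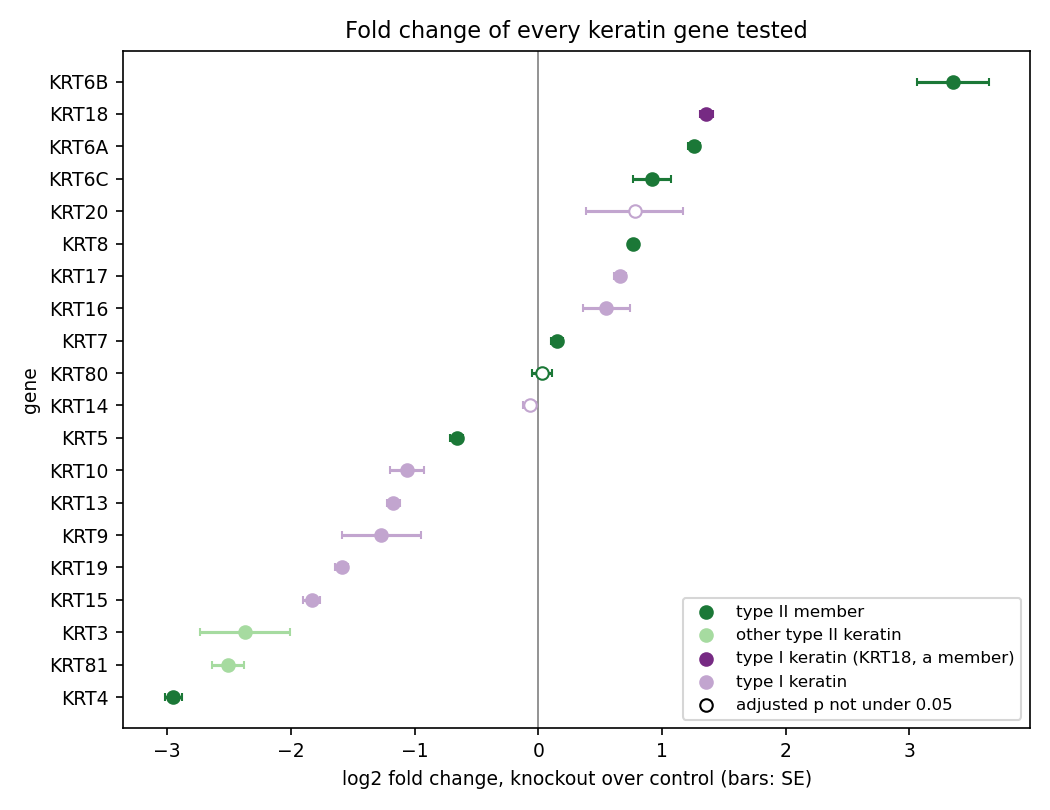
Log2 fold change, knockout over control, of every listed keratin gene tested, with bars of 1 SE. Open points did not pass the threshold (KRT20, KRT80 and KRT14). Type II genes run from KRT6B at 3.35 to KRT4 at -2.95, and 5 of the 9 listed type I genes other than KRT18 were lower.

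Of the 18 other type II keratins of the cluster, 2 had enough counts to be tested, and both were lower in the knockout. KRT81, a hair keratin, had 45, 76 and 62 counts in knockout and 381, 547 and 331 counts in control libraries (log2 -2.51, SE 0.13, adjusted p = 2.68e-18). KRT3, the type II chain of the cornea, had 8, 6 and 9 counts in knockout and 36, 57 and 51 counts in control libraries (log2 -2.37, SE 0.36, adjusted p = 8.54e-07). KRT3 passed the filter only through its control libraries, so it could be tested only because it was high there. KRT1, the chain of the differentiated layers of epidermis, was not tested, with 2, 0 and 1 counts in knockout and 7, 23 and 12 counts in control libraries. KRT86, a hair keratin whose gene span overlaps that of KRT81, was not tested either, with 5, 6 and 1 counts in knockout and 9, 16 and 7 counts in control libraries. Of the 9 tested keratins in the list of 21 type I genes, 5 were lower, 2 higher and 2 did not pass (77.8% past the threshold, beside 50.4% of all genes), with a median of -1.06. KRT10, the partner of KRT1, was lower (log2 -1.06, SE 0.14, adjusted p = 3.95e-08), and KRT15, a basal keratin, was lower too (log2 -1.83, SE 0.07, adjusted p = 2.25e-12). These genes lie on chromosome 17 in a region of lower values in general: of 44 other genes tested within 1 Mb of them, 38 were lower and 1 higher, with a median of -0.65. The part of that region in the type I values, and in every ratio to a type I gene other than KRT18, was not tested.

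No gene other than keratins was tested between KRT80 and KRT18. Of 29 other genes tested within 1 Mb of the cluster, 5 were higher, 6 lower and 18 did not pass, so that 37.9% passed, beside 50.4% of all genes. The flanks were not alike in these counts, and their difference was not tested. Before KRT80, 4 of 8 genes were higher and 1 lower (median log2 fold change 0.29), and beyond KRT18, 1 of 21 was higher and 5 lower (median -0.01). Along the cluster, the fold changes were 0.03 for KRT80, which did not pass, 0.15 for KRT7, 3.35 for KRT6B, 0.92 for KRT6C, 1.26 for KRT6A, -0.66 for KRT5, -2.95 for KRT4, 0.77 for KRT8 and 1.36 for KRT18. Among the 9, the lower genes KRT5 and KRT4 thus followed each other in order, with higher genes on either side. With the other tested keratins added, KRT3 (log2 -2.37), tested only through its control libraries, lay between KRT5 and KRT4. KRT81 (log2 -2.51) lay between KRT7 and KRT6B. Lower keratin genes were therefore not confined to a single stretch of the cluster.

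**Figure D5:**
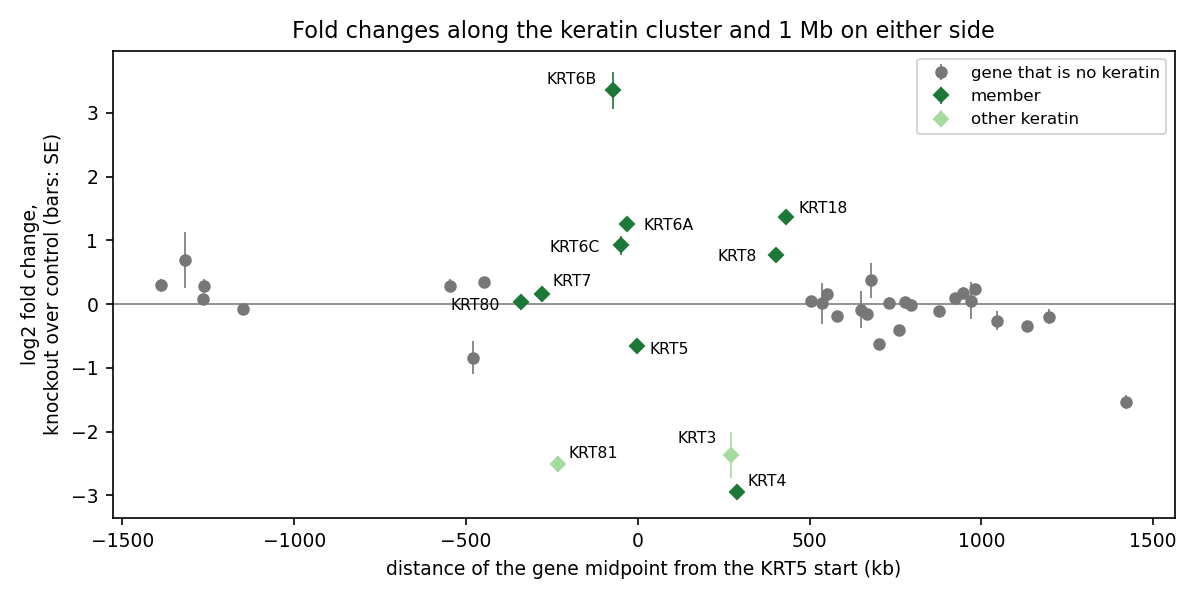
Log2 fold change, knockout over control (bars are 1 SE), of all genes tested in the keratin cluster and 1 Mb on either side, by distance from the KRT5 start in kb. The keratin genes spread from 3.35 (KRT6B) to -2.95 (KRT4), while the 8 other genes before KRT80 have a median of 0.29 and the 21 beyond KRT18 one of -0.01.

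Genes that work with keratin filaments were counted from lists chosen with earlier results of these data known. Of 14 genes that anchor keratin filaments at desmosomes and hemidesmosomes, 3 were higher, 4 lower and 7 did not pass (7 of 14 past the threshold, beside 50.4% of all genes; median -0.01). PLEC, the plectin linker of filaments to hemidesmosomes, rose by 0.84 (SE 0.06, adjusted p = 8.98e-11), while JUP, the desmosomal plakoglobin, and PKP1, a plakophilin, had log2 fold changes of -0.46 (SE 0.05, adjusted p = 1.9e-10) and -0.44 (SE 0.05, adjusted p = 1.36e-09). JUP lies on chromosome 17 within 1 Mb of the type I keratins, where 38 of 44 genes tested were lower (median -0.65). The part of that region in its value was not tested. Desmoplakin (DSP), which binds keratins directly, averaged 1208 CPM in knockout and 1213 CPM in control cells and did not pass (adjusted p = 0.921).

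Of 10 chaperones, binders and turnover genes of keratins, 5 were higher, 1 lower and 4 did not pass (6 of 10 past the threshold, near the 50.4% of all genes; median 0.21). FAM83H, which recruits casein kinase to keratin filaments, rose by 0.52 (SE 0.06), SFN, a 14-3-3 protein that binds Krt17 in mouse keratinocytes, by 0.45 (SE 0.05), and CSNK1A1, the kinase recruited, by 0.35 (SE 0.04), with adjusted p of at most 4.13e-08. Of 5 other intermediate filament genes tested, 4 were lower and 1 did not pass (beside 25.8% of all genes lower; median -0.34), and VIM, the vimentin gene of mesenchymal cells, was not tested at 0.427 CPM in knockout and 0.131 CPM in control cells. SYNM, the large filament protein synemin, had a log2 fold change of -1.97 (SE 0.13), the lamin gene LMNB1 one of -0.34 (SE 0.05) and NES, nestin, one of -0.84 (SE 0.21).

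Of 20 transcription factor genes with known sites in keratin promoters, 4 were higher, 6 lower and 10 did not pass (10 of 20 past the threshold, beside 50.4% of all genes; median -0.12). FOSL1, an AP-1 subunit, rose by 2.31 (SE 0.10, adjusted p = 1.15e-20) and JUN, its partner, by 0.82 (SE 0.08, adjusted p = 8.55e-11). STAT3 had a log2 fold change of -0.75 (SE 0.05, adjusted p = 7.92e-16). It lies within 1 Mb of the type I keratins on chromosome 17, among genes with a median of -0.65. The part of that region in its value was not tested. Of the other AP-1 subunits of the list, FOS (log2 -2.11, adjusted p = 0.000584), JUNB (log2 -0.48, adjusted p = 6.19e-09) and FOSL2 (log2 -0.47, adjusted p = 6.68e-07) were lower. JUND did not pass (log2 -0.11, adjusted p = 0.506), so the AP-1 genes did not move one way. Of 9 simple-epithelial genes other than keratins that were tested, 4 were higher, 3 lower and 2 did not pass (77.8% past the threshold, beside 50.4% of all genes, with 24.6% higher and 25.8% lower; median 0.03). The claudin gene CLDN4 rose by 0.50 (SE 0.06), while ELF3, an epithelial ETS factor, and ESRP1, an epithelial splicing regulator, had log2 fold changes of -0.57 (SE 0.06) and -0.32 (SE 0.05).

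Genes whose profile over the 6 libraries lay nearest to a keratin were found by Euclidean distance of centred log2 CPM, as a description. Nearest to KRT6A were PORCN (0.09), CXCL8 (0.14) and TXNIP (0.19). Nearest to KRT5 were STARD3 (0.08), SH3BP5L (0.09) and PIGC (0.10), and nearest to KRT4 were LYPD1 (0.13), EDIL3 (0.23) and MMP13 (0.29). STARD3 (log2 -0.60) lies on chromosome 17, as do the listed type I keratins, and the part of its position in this match was not tested. With 2 groups that lie apart, such a profile is mostly the difference between them.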

How the data were processed

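RNA was measured in 3 SDR42E1-knockout and 3 control libraries of HaCat cells. The authors deposited 1 table of raw counts per gene, not normalized, from stranded total-RNA libraries per the labels' protocols. The submitters' processing notes name GRCh38 as build, with aligner, counter and strand setting not given in the sources used here. No row lacked a gene name. The filterByExpr filter (at least 10 counts, scaled to library size, in 3 libraries, and 15 in total) kept 12293 genes. A gene could pass through 1 group alone, as KRT6B did through knockout and KRT3 through control libraries. The 12293 genes are those called tested. These genes were scaled by TMM and tested with the robust quasi-likelihood F test of edgeR 4.0.16 in R 4.3.3. The test was two-sided, with Benjamini-Hochberg adjustment over all genes and a threshold of 0.05. Every adjusted p of a gene comes from this test. Log2 fold changes are knockout over control (prior count 0.125), and each SE was taken as the size of the log2 fold change divided by the root of its F value. The test was checked on simulated data.

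Within groups, libraries differed beyond sampling noise (chi-square of 2.65 to 4.49 for each degree of freedom over 6 pairs), so each was kept as a replicate. Positions, exon lengths and coding sequences came from GENCODE release 29, with alignments by Biopython 1.88. The members and lists were chosen with earlier results of these data known. Genes were named by rule: the 9 keratins, type I partners, other type II keratins with at least 10 counts in a library, up to 3 members per list with the smallest adjusted p, and 3 nearest profiles each for KRT6A, KRT5 and KRT4. KRT15, KRT20, DSP, VIM, FOS, FOSL2, JUNB and JUND were named after their values were seen. Alternatives were DESeq2 1.42.0, limma-voom (limma 3.58.1), RLE and upper-quartile scaling, other filters, a replicate block, summed KRT6 rows and leaving out each library.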

Additional observations from a re-analysis of the deposited data

How the results depend on the processing

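Of the 9 keratins, 8 passed the threshold (6 higher, 2 lower) with limma-voom or DESeq2, with upper-quartile or RLE scaling, without a filter, with a minimum of 1 CPM in 3 libraries, and with the replicate block. With the KRT6 rows summed, 6 of 7 passed (4 higher, 2 lower). Leaving out 1 library gave 7 or 8, with 5 or 6 higher, KRT7 being the gene lost. KRT80 changed sign without control replicate 3, and its log2 fold change ran from -0.02 to 0.11 over the libraries left out. Genes past the threshold numbered 6197, or 5492 with DESeq2 and 6425 with the replicate block, and 5338 to 6074 without 1 library. The median of the chromosome 12 neighbours changed sign with upper-quartile scaling (-0.01) and without control replicate 2 (-0.01), a range of -0.01 to 0.05 over the libraries left out. Replicate numbers were not taken as pairs, since deviations of libraries with the same number had correlations of 0.0155, -0.0889 and -0.0145 and none of the 6 libraries correlated best with its own number, and the block changed no call among the 9 keratins. Of 47 genes followed, 43 kept both sign and call under each setting that gave them a value. The others were KRT7, KRT16, KRT80 and the endothelial marker VWF. In control libraries KRT6B had 8 to 10 counts, so its fold is the least certain of the 9.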
